A study of Mus musculus with 6 samples.

Results

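The genes described here are 8 genes of synaptic vesicles and of the SNARE machinery that fuses them with the plasma membrane, chosen by symbol: *Snap25*, *Syn1*, *Syp*, *Syt1*, *Vamp1*, *Vamp2*, *Sv2a* and *Cplx1*. All 8 were found among the 14865 genes of the table, and all 8 passed the minimum of 40 normalized reads in at least 1 library that left 14455 genes for testing. RNA of the cochlear duct was sequenced from C57BL/6 mice at P8 (postnatal day 8), in 3 libraries of *Gfi1+/+* (wild-type) and 3 of *Gfi1cre/+* mice. The *Gfi1cre* allele is a knock-in in which the coding sequence of Cre recombinase takes the place of 1 copy of *Gfi1*, so that the heterozygotes carry both Cre and a single intact copy of this hair cell transcription factor. Cre driven from this locus is not limited to hair cells and acts in immune cells of the inner ear too. Each *Gfi1+/+* library held 2 cochleae of 1 mouse and each *Gfi1cre/+* library 6 cochleae of 3 mice, so a *Gfi1+/+* replicate is 1 animal and a *Gfi1cre/+* replicate an average over animals. Expression is given as normalized reads, meaning the reads of a gene over a scaling factor for each library, and fold changes are on the log2(normalized reads + 1) scale, *Gfi1cre/+* against *Gfi1+/+*.

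At a nerve terminal, the vesicle SNARE synaptobrevin (VAMP1 or VAMP2) zippers with a syntaxin and SNAP-25 of the plasma membrane, complexin holds the assembled complex ready, and synaptotagmin triggers fusion when calcium enters. Synapsin tethers vesicles to each other and to the cytoskeleton, and synaptophysin and SV2A span the vesicle membrane. In the cochlear duct these proteins can belong to the neurites of spiral ganglion neurons and to efferent terminals, whereas the ribbon synapse of the hair cell lacks synapsins and uses otoferlin, encoded by *Otof*, for calcium-triggered release. *Nefm*, the medium neurofilament chain, marks axons, so that each gene was also set beside *Nefm* and *Otof* across the 6 libraries. In bulk RNA, fewer cells of a type and less RNA per cell cannot be told apart.

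RefSeq promoter entries (GRCm38.p6) were found for 6 of the 8 genes. *Snap25* and *Vamp2* had no entry. The 250 bases before the start are shown for *Syn1*, *Syp* and *Cplx1*, which moved together over the libraries as described below, and for *Vamp1*, which differed less in level, each 5′ to 3′ on the strand of the gene. The start meant here is that of the RefSeq entry. The GENCODE genes of *Syn1*, *Syp* and *Vamp1*, with positions given below, begin inside these windows. Capitals mark exact matches on either strand. The letters searched were TATAAA for the TATA box and CCAAT for the box of that name. GGGCGG stood for the GC box and TGACGTCA for the cAMP response element. CAGCACC stood for the left part of RE1, the element bound by the neuronal repressor REST. Its right part was GGACAG. No match overlapped another.
Syn1, chrX:20920919-20921168, minus strand: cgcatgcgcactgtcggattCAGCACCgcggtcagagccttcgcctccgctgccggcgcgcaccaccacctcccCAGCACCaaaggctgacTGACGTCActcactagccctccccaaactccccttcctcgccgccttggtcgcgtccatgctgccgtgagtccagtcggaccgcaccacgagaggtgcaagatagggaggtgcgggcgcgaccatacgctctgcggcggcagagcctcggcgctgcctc
Syp, chrX:7638330-7638579, plus strand: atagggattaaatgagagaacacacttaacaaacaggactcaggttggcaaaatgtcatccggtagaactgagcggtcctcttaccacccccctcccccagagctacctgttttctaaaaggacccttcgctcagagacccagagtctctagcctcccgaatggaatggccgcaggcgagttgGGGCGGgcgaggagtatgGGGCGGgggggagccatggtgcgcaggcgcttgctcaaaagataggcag
Cplx1, chr5:108550028-108550277, minus strand: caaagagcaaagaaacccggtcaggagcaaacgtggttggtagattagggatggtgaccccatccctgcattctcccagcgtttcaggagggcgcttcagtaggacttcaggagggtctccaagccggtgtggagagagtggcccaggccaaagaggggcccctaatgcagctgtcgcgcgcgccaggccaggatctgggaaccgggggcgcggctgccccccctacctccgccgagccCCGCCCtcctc
Vamp1, chr6:125215331-125215580, plus strand: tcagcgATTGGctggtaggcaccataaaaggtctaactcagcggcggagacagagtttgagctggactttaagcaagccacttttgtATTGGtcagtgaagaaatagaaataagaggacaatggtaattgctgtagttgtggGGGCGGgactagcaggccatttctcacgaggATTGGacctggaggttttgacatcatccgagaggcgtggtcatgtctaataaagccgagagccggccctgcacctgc

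The *Syn1* window had 68.0% G and C and held CAGCACC at 230 and 176 bases before the start and TGACGTCA at 159. The *Syp* window (56.4% G and C) held GGGCGG at 67 and 49 bases before the start, and that of *Cplx1* (64.8%) held it on the other strand at 11. The matches in the *Syp* window lay within the gene as GENCODE annotates it. In the *Vamp1* window (50.4%) CCAAT was matched on the other strand at 244, 163 and 77 bases before the start and GGGCGG at 108. Among 32851 promoter windows of the same length, 1.55% held the cAMP response element, 5.73% the left and 18.7% the right part of RE1, 32.7% the GC box, 33.8% the CCAAT box and 12.4% the TATA box. No motif was shared by these 4 windows. These are matches of letters, and nothing about binding was measured.

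Totals of 13603908 to 16136022 reads were counted on genes in the *Gfi1+/+* libraries and of 17939607 to 19359753 in the *Gfi1cre/+* libraries. *Gfi1* itself had 147, 160 and 152 normalized reads in *Gfi1+/+* and 136, 130 and 139 in *Gfi1cre/+*, a log2 fold change of -0.18. According to the paper, the part of *Gfi1* kept in the knock-in transcript still adds reads to this gene. The tissue held the RNA of hair cells and neurons, with 14 of 16 hair cell genes listed in the table (*Atoh1* and *Cabp2* were not) and summing to between 10421 and 12003 normalized reads per library. All 16 genes of a neuron list were found.

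*Gfi1+/+* replicate 1 stood apart from the other 5 libraries in neuronal and glial genes. Its 16 neuron genes summed to 16323 normalized reads, against 8896 and 6443 in the other *Gfi1+/+* libraries and between 6142 and 6967 in those of *Gfi1cre/+*, and 14 of the 16 were highest in this library. The 9 genes of the myelin and glia list summed to 44240 there and to between 20798 and 30587 in the other libraries, but only 5 of the 9 were highest there. Since these lists do not separate peripheral from central cells, 4 further lists were written after the values of *Slc32a1* and *Slc18a3* had been seen. *Mobp* and *Mog*, myelin genes of oligodendrocytes, the myelinating glia of the central nervous system, had 2235 and 232 normalized reads in *Gfi1+/+* replicate 1 and at most 27.0 and 3.55 in any other library. *Slc18a3*, the vesicular acetylcholine transporter, had 159 there and at most 0.89 elsewhere, and *Slc32a1*, the vesicular GABA and glycine transporter, had 115 and at most 5.24. All 9 oligodendrocyte and astrocyte genes found, all 6 genes of inhibitory transmission and all 4 of cholinergic transmission were highest in this library. So were 24.9% of all genes tested. The 6 and the 4 include *Slc32a1* and *Slc18a3*, whose values had been seen before the lists were written. Of 10 genes known from spiral ganglion neurons, several of which other cochlear cells also express, 3 were highest in it: *Prph*, *Slc17a6* and *Ntrk2*. The sums of the 10 lay between 6734 and 7826 in all 6 libraries. Most of each sum came from *Gata3* and *Ntrk2*, so the sums say little about the genes with fewer reads. *Prph* had 192.56 normalized reads in *Gfi1+/+* replicate 1 and at most 33.97 elsewhere, and *Slc17a6* had 95.04 and at most 54.44. *Slc17a7*, among those not highest there, had 70.36 and up to 103.65 elsewhere. The source of the transcripts that were highest in *Gfi1+/+* replicate 1 was not tested, nor was their part in the levels of the vesicle genes. The genotype differences and the relations with *Nefm* and *Otof* are therefore given with and without *Gfi1+/+* replicate 1.

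**Figure D1:**
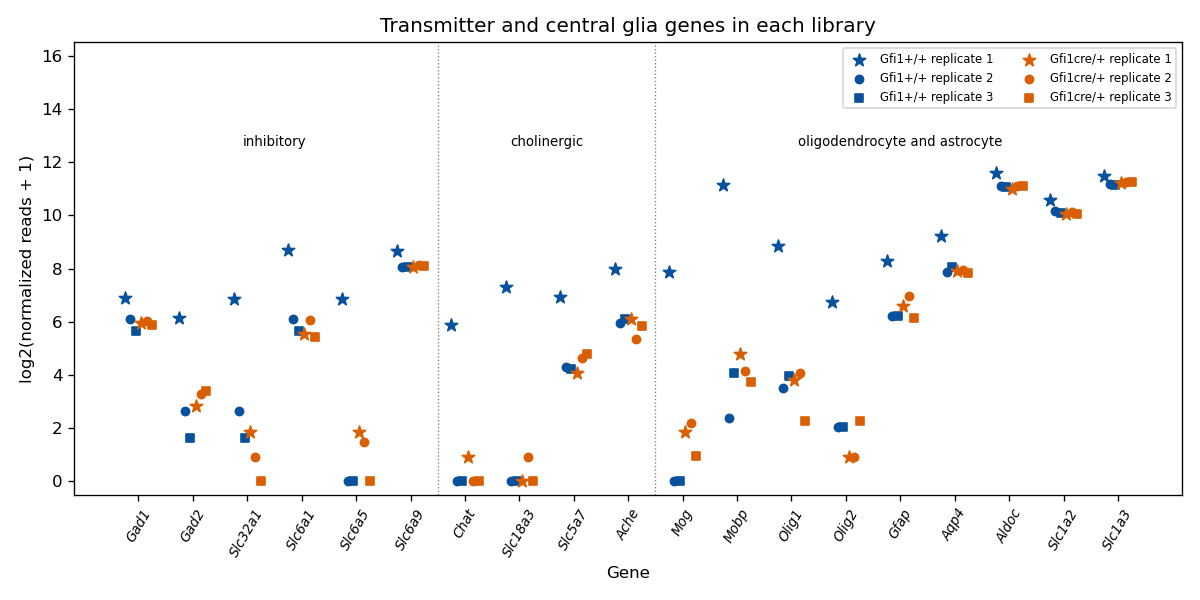
Level of 19 genes of inhibitory and cholinergic transmission and of oligodendrocytes and astrocytes, as log2(normalized reads + 1), 1 point per library, with *Gfi1+/+* in blue, *Gfi1cre/+* in orange and the replicates by marker shape. *Gfi1+/+* replicate 1 (blue star) is the highest library for all 19 genes, and *Mobp*, at 2235 normalized reads there, is at most 27.0 in the others. The 19 include *Slc32a1* and *Slc18a3*, whose values had been seen before the genes were listed.

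Among the SNAREs, *Snap25* varied more between libraries, 7.02-fold from the lowest to the highest, than *Vamp1* (1.46-fold) and *Vamp2* (1.27-fold). These ranges were 2.77-fold, 1.22-fold and 1.27-fold without *Gfi1+/+* replicate 1. *Snap25* (ENSMUSG00000027273, chromosome 2, 136713453 to 136782428 of GRCm38, plus strand) encodes the target-membrane SNARE that contributes a pair of helices to the complex. Replicates 1 to 3 of *Gfi1+/+* gave 464, 183 and 101 normalized reads, and those of *Gfi1cre/+* gave 66.2, 79.9 and 127, in that order here and for each gene that follows. *Gfi1cre/+* replicate 3 lay above *Gfi1+/+* replicate 3, so the genotypes overlapped. The means were 250 ± 190 and 91.1 ± 32.1 normalized reads (SD, n = 3), and the log2 fold change of -1.22 (standard error 0.472) had an unadjusted p of 0.0298 in limma's test. Without *Gfi1+/+* replicate 1 it was -0.63 (unadjusted p = 0.0734, limma).

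*Vamp1* (ENSMUSG00000030337, chromosome 6, 125215551 to 125245964, plus strand), the synaptobrevin of many brainstem, spinal and motor synapses, had 1041, 819 and 874 normalized reads in *Gfi1+/+* and 715, 773 and 729 in *Gfi1cre/+*. Every *Gfi1cre/+* library lay below every *Gfi1+/+* library, although *Gfi1cre/+* replicate 2 came within a short distance of *Gfi1+/+* replicate 2. The log2 fold change was -0.30 (standard error 0.0890, unadjusted p = 0.00899, limma), the smallest unadjusted p among the 8 genes, and -0.20 (unadjusted p = 0.0199) without *Gfi1+/+* replicate 1. *Vamp2* (ENSMUSG00000020894, chromosome 11, 69088490 to 69092384, plus strand), the more widely expressed synaptobrevin, had 2524, 2273 and 2895 normalized reads in *Gfi1+/+* and 2589, 2531 and 2498 in *Gfi1cre/+*. All *Gfi1cre/+* values fell within the *Gfi1+/+* range, and *Gfi1+/+* replicate 1 did not stand out. Its log2 fold change was -0.01 with a standard error of 0.0828 (unadjusted p = 0.934, limma). It was -0.01 without *Gfi1+/+* replicate 1 too (unadjusted p = 0.878), and its sign turned to 0.084 without *Gfi1+/+* replicate 3 and to 0.0046 without *Gfi1cre/+* replicate 3.

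*Cplx1* (ENSMUSG00000033615, chromosome 5, 108518554 to 108550024, minus strand), the complexin that binds the assembled SNARE complex, had 974, 404 and 209 normalized reads in *Gfi1+/+* and 108, 164 and 253 in *Gfi1cre/+*. *Gfi1+/+* replicates 1 and 2 were the highest libraries, and *Gfi1cre/+* replicate 3 lay above *Gfi1+/+* replicate 3. It had the widest range of the 8 genes, 9.02-fold from the lowest to the highest library and 3.74-fold without *Gfi1+/+* replicate 1. The means were 529 ± 397 and 175.0 ± 73.1 normalized reads (SD, n = 3). Its log2 fold change was -1.39 (standard error 0.493, unadjusted p = 0.0198, limma) and -0.81 (unadjusted p = 0.0483) without *Gfi1+/+* replicate 1.

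The calcium sensor *Syt1* (ENSMUSG00000035864, chromosome 10, 108497650 to 109010982, minus strand), which triggers fast release at central synapses, varied little by comparison. It had 850, 796 and 648 normalized reads in *Gfi1+/+* and 596, 673 and 659 in *Gfi1cre/+*. *Gfi1+/+* replicate 3 lay between the *Gfi1cre/+* values. Its log2 fold change was -0.24 (standard error 0.102, unadjusted p = 0.0405, limma), and without *Gfi1+/+* replicate 1 it was -0.16 (unadjusted p = 0.139).

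The 3 vesicle proteins were each lower in every *Gfi1cre/+* library than in every *Gfi1+/+* library. *Syn1* (ENSMUSG00000037217, chromosome X, 20860511 to 20921004, minus strand), synapsin I, had 300, 69.1 and 65.4 normalized reads in *Gfi1+/+* and 38.3, 44.4 and 53.8 in *Gfi1cre/+*. Here *Gfi1+/+* replicate 1 was 4.46 times the mean of the other *Gfi1+/+* libraries, which lay close to each other. With all libraries it had a log2 fold change of -1.28 (standard error 0.504, unadjusted p = 0.0315, limma), and -0.57 (unadjusted p = 0.0223) without that library. *Syp* (ENSMUSG00000031144, chromosome X, 7638471 to 7653256, plus strand), synaptophysin, had 507, 162 and 110 normalized reads in *Gfi1+/+* and 67.0, 84.3 and 93.4 in *Gfi1cre/+*, which leaves a gap between *Gfi1+/+* replicate 3 and *Gfi1cre/+* replicate 3. For *Syp* the log2 fold change was -1.36 (standard error 0.460, unadjusted p = 0.0162, limma) and -0.72 (unadjusted p = 0.00772) without *Gfi1+/+* replicate 1.

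*Sv2a* (ENSMUSG00000038486, chromosome 3, 96181151 to 96195521, plus strand), a vesicle glycoprotein, had 615, 334 and 294 normalized reads in *Gfi1+/+* and 273, 281 and 281 in *Gfi1cre/+*. The *Gfi1cre/+* libraries lay close together (SD 4.62 normalized reads, n = 3), and *Gfi1+/+* replicate 3 lay just above them. The log2 fold change was -0.49 (standard error 0.228, unadjusted p = 0.0587, limma), which edgeR's quasi-likelihood test on the recovered reads put at -0.56 with an unadjusted p of 0.0449. Without *Gfi1+/+* replicate 1 it was -0.17 (unadjusted p = 0.0948, limma).

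**Figure D2:**
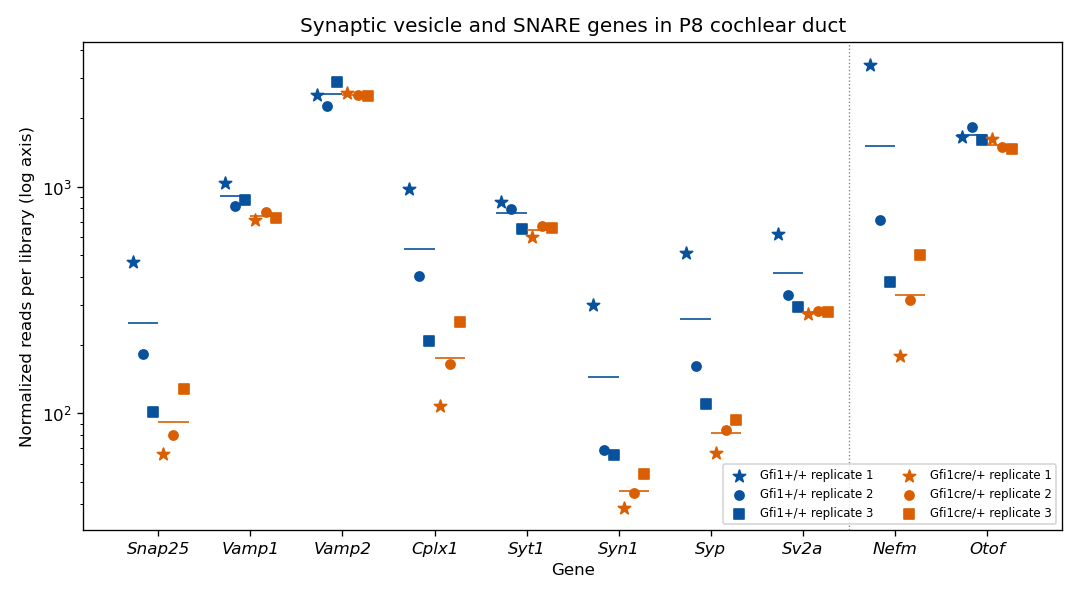
Normalized reads of the 8 genes, *Nefm* and *Otof* in each of the 6 libraries on a log axis, with *Gfi1+/+* in blue, *Gfi1cre/+* in orange, replicates by marker shape and a line at each genotype's mean. *Gfi1+/+* replicate 1 is the highest library for 7 of the 8 genes and for *Nefm*, and *Vamp2* and *Otof* keep within 1.27-fold and 1.25-fold over all libraries.

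The genotype comparison set *Gfi1cre/+* against *Gfi1+/+*. These groups differ in intact *Gfi1* copies, in Cre, in mice per library and in the sex-linked transcripts given below. All 8 had a negative log2 fold change, with a median of -0.85, where the median of all 14455 genes was -0.000116. Of the 8, 6 passed an unadjusted p of 0.05 with limma, all lower, against 2.02% of all genes tested. *Snap25*, *Syn1*, *Syp* and *Cplx1* also had a fold change above 2, which 0.367% of genes did in the lower direction. After Benjamini-Hochberg adjustment in limma's fit none of the 8 passed 0.05, each at an adjusted p of 0.999. Neither edgeR nor DESeq2 gave any of them an adjusted p under 0.05. At an unadjusted p-value under 0.05 each of those tools had 7 of the 8. The share of all genes at that threshold was not counted for them. With a 2-fold change as well, 155 of all genes passed with edgeR and 147 with DESeq2, against 68 in limma's fit. In all, 4 genes, or 0.0277%, passed the adjusted threshold in limma's fit. The genotypes did not overlap for *Syn1*, *Syp*, *Vamp1* and *Sv2a*, against 4.07% of all genes lower without overlap, and each then had the smallest p that 3 libraries against 3 allow (exact permutation test, two-sided p = 0.1). For the others the exact permutation test gave p = 0.2 for *Snap25* and *Cplx1*, 0.3 for *Syt1* and 0.9 for *Vamp2*.

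Without *Gfi1+/+* replicate 1 all 8 log2 fold changes remained negative and their median was -0.38. *Syn1*, *Syp*, *Vamp1* and *Cplx1* then had an unadjusted p-value under 0.05, against 1.17% of all genes in the lower direction, and none had a fold change above 2. Without *Gfi1cre/+* replicate 1 only *Vamp1* among the 8 genes had an unadjusted p-value under 0.05, at a log2 fold change of -0.27, and without *Gfi1cre/+* replicate 2 there were 2. The share of all genes at that threshold was not counted for these fits. With a 2-fold change as well, 22 and 37 of all genes passed in them, against 68 with all libraries. With the mean level of the neuron list in each library as a covariate, the median was -0.17 and none of the 8 had an unadjusted p-value under 0.05. The log2 fold changes then ran from -0.01 for *Sv2a* to -0.32 for *Syp*, and *Vamp1* stood at -0.17.

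**Figure D3:**
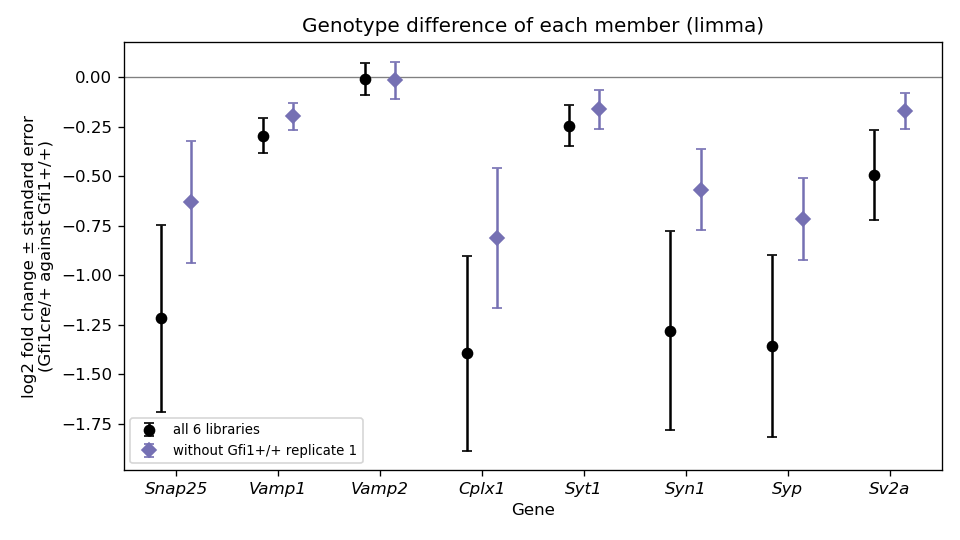
The log2 fold change of each gene, *Gfi1cre/+* against *Gfi1+/+*, with its standard error from limma, with all 6 libraries (black) and without *Gfi1+/+* replicate 1 (purple). All 16 values are below 0, and those of *Snap25*, *Cplx1*, *Syn1* and *Syp* move from between -1.39 and -1.22 to between -0.81 and -0.57 when the library is left out.

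The libraries ranked alike across most of these genes. *Gfi1+/+* replicate 1 was the highest library for 7 of the 8, against 24.9% of all genes, and *Gfi1cre/+* replicate 1 the lowest for 7, against 11.7%. The exception in both cases was *Vamp2*. From the lowest to the highest library, *Snap25*, *Syn1*, *Syp* and *Cplx1* spanned over 4-fold, as 1.63% of all genes did, and with *Sv2a* 5 of the 8 spanned over 2-fold, as 5.14% did. Averaged over the 8 genes, the deviation from a gene's mean on the log2 scale came to 1.15, 0.17 and -0.14 for the *Gfi1+/+* libraries and -0.60, -0.39 and -0.19 for the *Gfi1cre/+* libraries. *Gfi1+/+* replicate 3 thus lay next to *Gfi1cre/+* replicate 3.

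*Syn1* and *Syp* lie on the X chromosome, and the genotypes differed in sex-linked transcripts. The Y-linked *Ddx3y*, *Kdm5d*, *Eif2s3y* and *Uty* summed to at most 2.10 normalized reads in *Gfi1+/+* and to 794, 902 and 1621 in *Gfi1cre/+*, and *Xist* had 7338 to 8138 in *Gfi1+/+* and 2301 to 5359 in *Gfi1cre/+*. For *Syn1* and *Syp*, and for every other gene compared between genotypes, an effect of sex and one of genotype cannot be told apart. In the GENCODE annotation *Syp* shares 875 exon bases with the antisense gene *Gm14703*, and *Syn1* shares 9 with *Araf* on the opposite strand, which had between 1911 and 2207 normalized reads. The strand setting of the counting is not given in the sources used here, so reads of such partners could not be separated.

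Set beside the neurite and hair cell markers, 7 of the 8 genes had a relation with *Nefm* at an unadjusted permutation p under 0.05 and none had one with *Otof*. *Nefm* had 3449, 712 and 378 normalized reads in *Gfi1+/+* and 178, 315 and 499 in *Gfi1cre/+*, so that *Gfi1cre/+* replicate 3 lay above *Gfi1+/+* replicate 3, as it did for *Snap25* and *Cplx1*. *Otof* had 1650, 1832 and 1601 in *Gfi1+/+* and 1620, 1490 and 1467 in *Gfi1cre/+*, close to each other and highest in *Gfi1+/+* replicate 2. Over the 6 libraries the markers themselves had a Pearson r of 0.310 on the log2 scale.

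*Snap25* and *Cplx1* ranked the 6 libraries exactly as *Nefm* did. For *Snap25*, Pearson's r was 0.992 and Spearman's rho 1 (n = 6, exact permutation p = 0.00139 and 0.00278, which are 0.0111 and 0.0222 after Benjamini-Hochberg adjustment over 16 relations). *Cplx1* had r = 0.989 and the same rho and p-values (n = 6, exact permutation test). These are the smallest p-values that 6 libraries can give for r and, two-sided, for rho. When the libraries farthest from the median of *Nefm* were left out, which were *Gfi1+/+* replicate 1 and *Gfi1cre/+* replicate 1, r was 0.998 for *Snap25* and 0.992 for *Cplx1*. Over the 5 libraries in which *Mobp* was at most 27.0 normalized reads, it was 0.970 and 0.992.

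The vesicle proteins and *Syt1* followed *Nefm* less exactly. For *Syp*, r was 0.981 (n = 6, exact permutation p = 0.00417, adjusted p = 0.0178) and rho 0.943 (p = 0.0167, adjusted p = 0.0667), and r fell to 0.838 without both outlying libraries. For *Syn1*, r was 0.967 (n = 6, exact permutation p = 0.00694, adjusted p = 0.0185) with the same rho, and 0.685 without those libraries. *Sv2a* and *Syt1* had r = 0.949 and 0.914, each with an exact permutation p of 0.00556 (n = 6, adjusted p = 0.0178), and rho = 0.829 (p = 0.0583, adjusted p = 0.156). Their r was 0.798 and 0.795 without the outlying libraries. With only *Gfi1+/+* replicate 1 left out, r was 0.903 for *Syp*, 0.861 for *Syn1*, 0.795 for *Sv2a* and 0.872 for *Syt1*. The slopes depended on that library. In log2 units per log2 unit of *Nefm* they were 0.70 for *Syn1* and *Syp*, 0.29 for *Sv2a* and 0.12 for *Syt1* with it, and 0.41, 0.57, 0.12 and 0.18 for *Syn1*, *Syp*, *Sv2a* and *Syt1* without it.

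For *Vamp1* the relation rested on the outlying libraries, since r = 0.864 (n = 6, exact permutation p = 0.0375, adjusted p = 0.0857; rho 0.714, p = 0.136, adjusted p = 0.311) became -0.0275 without them and 0.460 without *Gfi1+/+* replicate 1 alone. *Vamp2* had r = -0.272 with *Nefm* (n = 6, exact permutation p = 0.519, adjusted p = 0.519; rho -0.657, p = 0.175, adjusted p = 0.35), and -0.494 without that library. In all, 6 of the 8 genes had r above 0.9 with *Nefm*, against 2.7% of all genes, and 3 without *Gfi1+/+* replicate 1, against 1.72%. Within genotypes, as deviations from each genotype's mean, 4 of the 8 relations had an exact permutation p under 0.05, where 7 did over the pooled libraries. The libraries share their dissection and genotype with both measures, and the part of either was not tested.

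With *Otof*, r lay between -0.427 for *Vamp2* and 0.546 for *Syt1*, and the smallest exact permutation p was 0.279 (n = 6, adjusted p = 0.519 for all 8). None of the 8 had r above 0.9 with it, against 0.699% of all genes, and the median r was 0.380, where it was 0.958 with *Nefm*. These medians lay closer without *Gfi1+/+* replicate 1, at 0.505 with *Otof* and 0.866 with *Nefm*. For *Sv2a*, r with *Otof* was 0.350 with all libraries and 0.831 without that library, where its r with *Nefm* was 0.795. For the other genes r with *Otof* then ran from -0.425 for *Vamp2* to 0.677 for *Syp*. As deviations from each genotype's mean, r with *Otof* was negative for *Snap25*, *Syn1*, *Syp*, *Vamp1*, *Sv2a* and *Cplx1*, from -0.526 for *Vamp1* to -0.132 for *Snap25*. *Slc17a8*, the glutamate transporter that fills the vesicles of inner hair cells, had 174, 166 and 167 normalized reads in *Gfi1+/+* and 154, 178 and 177 in *Gfi1cre/+*, with a log2 fold change of 0.00 (unadjusted p = 0.963, limma).

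**Figure D4:**
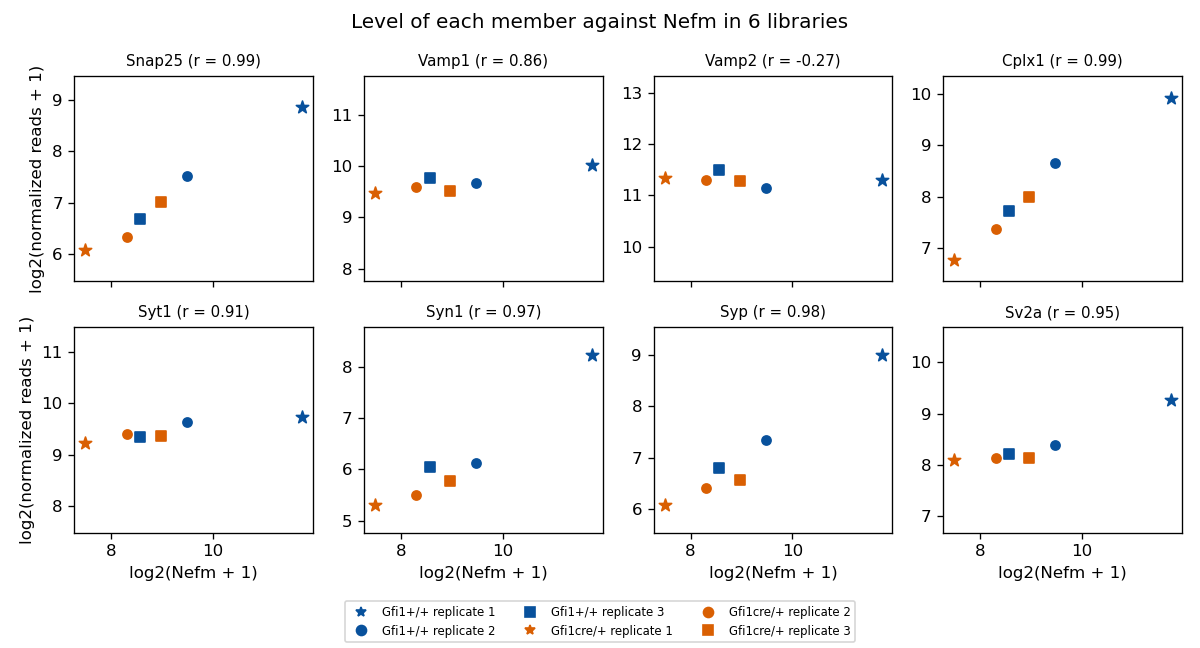
Level of each of the 8 genes against *Nefm* in 6 libraries, both as log2(normalized reads + 1), with all panels spanning the same number of log2 units, *Gfi1+/+* in blue, *Gfi1cre/+* in orange and replicates by marker shape. *Snap25* (r = 0.99) and *Cplx1* rise along the whole range of *Nefm*, *Syt1* and *Vamp1* form shallow lines, and *Vamp2* is flat.

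Among the 8 genes themselves, the closest pair was *Snap25* and *Cplx1*, with r = 0.994 over 6 libraries and 0.988 without *Gfi1+/+* replicate 1. *Syn1* and *Syp* had r = 0.985 and 0.926. *Vamp2* had r between -0.524 and 0.123 with the other 7. The genes outside the 8 whose profile was most like their mean standardized profile over the 6 libraries were *Ttc9b* (r = 0.997), *Pianp* (0.996), *Rab3c* (0.995), *Unc13a* (0.994) and *Ncs1* (0.990). *Rab3c* is a small GTPase of vesicles and *Unc13a* encodes Munc13-1, which primes them. *Ttc9b* had 72.8, 23.0 and 19.0 normalized reads in *Gfi1+/+* and 10.4, 12.4 and 14.2 in *Gfi1cre/+*.

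Per kilobase of exon, *Vamp2* had the highest level of the 8 genes and *Snap25* the lowest, in the same order in both genotypes. In *Gfi1cre/+*, where the libraries varied less, *Vamp2* had 667 ± 12.1 normalized reads per kilobase (SD, n = 3), followed by *Cplx1* with 79.9 ± 33.4, *Syt1* with 77.1 ± 4.89, *Vamp1* with 72.7 ± 2.998 and *Sv2a* with 60.1 ± 0.996. Among the *Gfi1cre/+* libraries the range of *Cplx1*, 49.3 to 116, covered those of *Syt1*, *Vamp1* and *Sv2a*, *Syt1* overlapped *Vamp1*, and *Sv2a* lay below *Vamp1* in each library. The levels of *Syp* (15.7 ± 2.57), *Syn1* (13.8 ± 2.37) and *Snap25* (13.4 ± 4.73) were not separable by their spread. In *Gfi1+/+* the corresponding levels were 673 ± 82.2 for *Vamp2*, 242 ± 182 for *Cplx1*, 49.8 ± 41.4 for *Syp*, 43.9 ± 40.7 for *Syn1* and 36.7 ± 28.0 for *Snap25*. With the length of the longest protein-coding transcript, a choice made after seeing the data, *Vamp1* came second at 245 in *Gfi1cre/+* and *Snap25* sixth at 43.1, while *Vamp2* remained first.

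A ratio of paralogues within a library depends on its size factor only through the 1 normalized read added before taking logs. The ratio of *Syn1* to *Syn2*, which encodes synapsin II, was the one among 6 pairs whose genotypes did not overlap. The share over other pairs of genes was not counted. Among 14455 single genes, 588 were lower and 499 higher without overlap. In their lowest libraries *Syn1* and *Syn2* rested on 44 and 54 reads. As a difference in log2(normalized reads + 1) it was -0.04, 0.11 and 0.20 in *Gfi1+/+* and -0.39, -0.48 and -0.27 in *Gfi1cre/+*. The difference between genotypes was -0.47 and, without *Gfi1+/+* replicate 1, -0.53 (exact permutation test with all libraries, two-sided p = 0.1, the smallest possible, and 0.3 after Benjamini-Hochberg adjustment over 6 pairs). *Syn2* followed *Syn1* into *Gfi1+/+* replicate 1, with 309 normalized reads there and between 50.5 and 65.1 in the other libraries, so this ratio was not extreme in that library.

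The other pairs overlapped between genotypes. *Vamp1* to *Vamp2* was -1.49 ± 0.225 in *Gfi1+/+* and -1.78 ± 0.0734 in *Gfi1cre/+* (log2 difference, SD, n = 3), and *Sv2a* to *Sv2b* was 1.51 ± 0.235 and 1.26 ± 0.216. The genotype difference was -0.29 and -0.25 for these pairs, and -0.18 for both without *Gfi1+/+* replicate 1. *Snap25* to its non-neuronal relative *Snap23* was -1.80 ± 1.12 and -2.98 ± 0.461, and *Cplx1* to *Cplx2* was -0.51 ± 0.947 and -1.81 ± 0.546. *Gfi1+/+* replicate 1 had the highest ratio of both pairs. The differences between genotypes were -1.18 for *Snap25* to *Snap23* and -1.29 for *Cplx1* to *Cplx2*, and without that library -0.59 and -0.78. *Syt2* to *Syt1* was -2.68 ± 1.36 and -3.72 ± 0.445, with *Syt2*, the faster synaptotagmin of hindbrain synapses, at 390 normalized reads in *Gfi1+/+* replicate 1 and between 34.8 and 69.8 in the other 5 libraries. The difference for that pair went from -1.05 to -0.27 without that library.

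**Figure D5:**
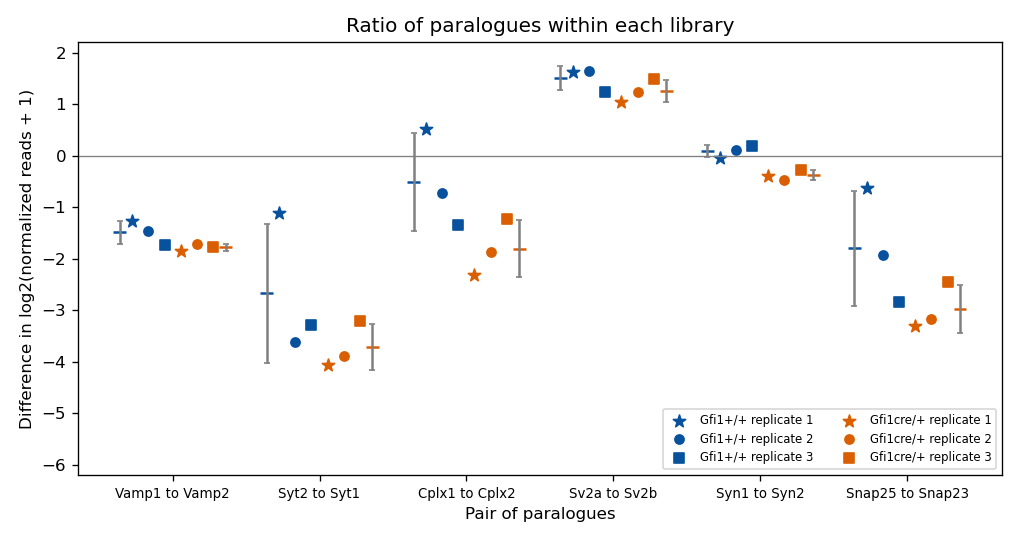
Ratio of 6 pairs of paralogues within each library, as the difference in log2(normalized reads + 1), with *Gfi1+/+* in blue, *Gfi1cre/+* in orange, replicates by marker shape and the mean with its SD (grey) beside the points of each genotype. Only for *Syn1* to *Syn2* do the genotypes keep apart, at -0.04 to 0.20 against -0.48 to -0.27.

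Of the wider release machinery, the target-membrane SNARE *Stx1a* had a log2 fold change of 0.06 (unadjusted p = 0.432, limma), and of 0.09 (unadjusted p = 0.274) without *Gfi1+/+* replicate 1. *Rab3a*, the vesicle GTPase, had 997, 615 and 645 normalized reads in *Gfi1+/+* and 540, 593 and 607 in *Gfi1cre/+*, with no overlap and a log2 fold change of -0.34 (unadjusted p = 0.0638, limma). It was -0.12 (unadjusted p = 0.154) without *Gfi1+/+* replicate 1.

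A list of 86 genes of the vesicle cycle, which holds the 8 genes, gave 79 tested. Of the 71 others, 53 were lower and 18 higher in *Gfi1cre/+*, where all genes tested divided into 7237 lower and 7218 higher. Their median log2 fold change was -0.15, and 9 passed an unadjusted p of 0.05 with limma, all lower, against 2.02% of all genes. None had an adjusted p under 0.05. They included the priming and active zone genes *Rph3a* (-1.33), *Ppfia3* (-0.86) and *Unc13a* (-0.53), the slow calcium sensor *Syt7* (-0.71), the proton pump subunit *Atp6v1g2* (-0.52), and the vesicle proteins *Syngr3* (-1.29), *Rab3c* (-0.88) and *Synpr* (-0.57). Without *Gfi1+/+* replicate 1, 46 of the 71 were lower and 25 higher, the median was -0.04 and 2 had an unadjusted p-value under 0.05, against 1.17% of all genes, *Ppfia3* among them (-0.62, unadjusted p = 0.0205, limma).

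By role and with the 8 genes included, 3 of 14 SNAREs tested, 1 of 15 SNARE regulators, 2 of 10 calcium sensors, 5 of 17 vesicle proteins, 1 of 7 genes of transmitter loading, 3 of 11 active zone genes and 0 of 5 endocytosis genes passed an unadjusted p of 0.05 with limma, all lower, against 2.02% of all genes. With *Gfi1+/+* replicate 1 left out these counts were 2 SNAREs, 1 regulator, 0 calcium sensors, 2 vesicle proteins, 0 loading genes, 1 active zone gene and 0 endocytosis genes, against 1.17% of all genes. Endocytosis genes were lower in 5 of 5 cases, and SNAREs in 11 of 14 with a median of -0.03. The neuron list, which moved in the same direction, had 16 of 16 genes lower and 5 at an unadjusted p-value under 0.05, with a median of -0.76, and without *Gfi1+/+* replicate 1 it had 15 lower and a median of -0.31. Of the 14 hair cell genes tested, 11 were lower, 1 with an unadjusted p-value under 0.05, with a median of -0.13, and without *Gfi1+/+* replicate 1 these counts were the same and the median -0.10. Other lists moved the opposite way. Erythroid genes were higher in 9 of 9 cases with a median of 0.60, all 9 at an unadjusted p-value under 0.05, and bone genes in 7 of 7 with a median of 0.30, 1 of them at that threshold. Of all 14455 genes tested, 147 were higher at that threshold. The erythroid and bone genes were all still higher without *Gfi1+/+* replicate 1, with medians of 0.40 and 0.17. Of them 3 and 0 then passed, against 134 of all 14455 genes in the higher direction. The part of erythroid and bone cells in the genotype difference of the vesicle genes was not tested. The covariate fit used the neuron list only. As that list was itself lower in *Gfi1cre/+* for 16 of 16 genes, the fit cannot separate neuron content from genotype.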

How the data were processed

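Per the labels, polyA RNA of the cochlear duct was sequenced in 6 libraries, 3 of each genotype. According to the methods and the submitters' processing notes, the authors aligned paired-end reads from TruSeq libraries to mm10 with TopHat, counted unique reads on genes with HTSeq and normalized them; versions, the annotation and the strand setting are not given in the sources used here. The deposited signal is described as quantile-normalized, but its columns do not share quantiles: 100.0% of the values in every column were whole multiples (tolerance 0.0051 reads) of 1 step, so each is a read count divided by a library size factor. The genotype and number in each column name gave its sample. No batch is labelled, and p-values measure the spread between these libraries.

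Of 14865 genes, the 14455 that reached 40 normalized reads in any library entered limma 3.58.1 (R 4.3.3, eBayes with trend) on log2(signal + 1), two-sided, genotype only, with Benjamini-Hochberg adjustment over all of them. Since the unit is a normalized signal, counts enter only alternatives. On recovered reads, edgeR 4.0.16 (quasi-likelihood, TMM) gave 4 genes and DESeq2 1.42.0 gave 10 at an adjusted p-value under 0.05. Correlations and ratios used exact permutation tests (scipy 1.17.1). The limma fit with genotype only was tested on simulated data. Positions, overlaps and union exon lengths came from GENCODE M21 (GRCm38), which matched 14791 identifiers, and promoters from RefSeq. Genes were named by rule: the members, *Nefm*, *Otof*, paralogues, 5 release genes (some are not reported here), at most 3 machinery genes per role by size of change at an unadjusted p-value under 0.05, the 5 most similar profiles, overlapping genes, *Gfi1* and sex-linked genes. *Mobp*, *Mog*, *Slc18a3* and *Slc32a1* were named after their values were seen. The members and lists were chosen with earlier results of these data known. Alternatives were other pseudocounts (0.1, 10), minima, tools, quantile normalization, the replicate number as a block, a neuron covariate and each library left out. Fold and p-value columns of the authors were not used.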

Additional observations from a re-analysis of the deposited data

How the results depend on the processing

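Of the values compared under the alternatives, 9 changed sign. The log2 fold change of *Vamp2* was 0.0046 without *Gfi1cre/+* replicate 3 and 0.084 without *Gfi1+/+* replicate 3 (range -0.090 to 0.084 with 1 library left out). As deviations from each genotype's mean, r with *Otof* was -0.132 for *Snap25*, -0.317 for *Syn1*, -0.170 for *Syp*, -0.526 for *Vamp1*, -0.142 for *Sv2a* and -0.175 for *Cplx1*. For *Vamp2* it was 0.363 without *Gfi1+/+* replicate 2 (range -0.709 to 0.363).

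Over all genes, the number at an adjusted p-value under 0.05 was 4 in limma's fit, 10 with DESeq2, 0 where the mean had to reach 200 normalized reads and between 0 and 48 with 1 library left out. The number past both a 2-fold change and an unadjusted p of 0.05 was 68, against 147 with DESeq2, 155 with edgeR, 12 with a mean of at least 200, 18 with the neuron covariate and 22 to 184 with 1 library left out. Of the 8 genes, 6 had an unadjusted p-value under 0.05, against 3 of the 5 with a mean of at least 200, 0 with the covariate and 1 to 7 with 1 library left out. Their median log2 fold change of -0.85 was -0.30 with a mean of at least 200, which drops *Snap25*, *Syn1* and *Syp*, -0.17 with the covariate and -1.18 to -0.38 with 1 library left out. In the list of the vesicle cycle the count of 15 was 4, 1 and 2 to 36. The count of 7 relations with *Nefm* was 4 within genotypes and 2 to 7 with 1 library left out, where fewer libraries also raise the smallest possible p. The median level per kilobase in *Gfi1+/+*, 89.5, was 127 with the longest transcript and 138 with the longest protein-coding transcript, chosen after seeing the data.

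Deviations from each genotype's mean, taken over all genes, correlated at -0.0944, 0.107 and -0.0326 between same-numbered libraries. Between differently numbered ones they correlated at -0.156 to 0.150, so no pairing by replicate number was seen. With 3 libraries per genotype and *Gfi1+/+* replicate 1 standing apart, these values cannot exclude a pairing. The fit with the replicate number as a block gave 7 of the 8 genes at an unadjusted p-value under 0.05. The share of all genes at that threshold was not counted for this fit. *Snap25*, *Syn1*, *Syp* and *Cplx1* also had a fold change above 2 in it. Over all genes tested 69 passed both thresholds in either direction, against 68 without the block. The cause of the other shifts was not tested. *Syn1* rested on 44 reads in its lowest library and *Vamp2* on 2975 in its highest.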
